A study of Mus musculus with 6 samples.

Results

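The genes described here encode the desmosome, the intercellular junction that anchors keratin filaments at the plasma membrane of epithelial cells. They were taken from the count table by symbol, and this match uses no measured value. The list of symbols itself was chosen with earlier results of these data known. Its members are the desmosomal cadherins Dsg2 and Dsc2, and the armadillo proteins Jup, Pkp1, Pkp2, Pkp3 and Pkp4. The others are the plakins Dsp and Ppl and the tetraspan membrane protein Perp. All 10 symbols were found among the 21240 genes of the table, and 9 of them passed the filter on low counts, which asked for at least 2 CPM (counts scaled to the size of the library) in at least 2 libraries and left 11080 genes. Dsc2 did not pass it. NMuMG cells, an epithelial line from normal mouse mammary gland, were kept without serum or insulin for 6 h and then received 5 ng/ml TGFβ1 for 2 h (TGFb2h) or 12 h (TGFb12h), or the vehicle for 2 h (veh). The vehicle was dilute HCl with BSA by the treatment protocol and the study's methods, where the sample labels write Tris-HCl with BSA. Each group had 2 biological replicates of this single line, giving 6 stranded total RNA libraries. Vehicle cells were collected at 2 h alone, and the effect of TGFβ1 at 12 h and that of a longer time without serum and insulin therefore cannot be told apart.

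Desmosomal cadherins span the membrane and bind those of the neighbouring cell. Inside the cell, plakoglobin (encoded by Jup) and the plakophilins, which carry armadillo repeats, link the cadherin tails to desmoplakin (encoded by Dsp), and desmoplakin holds the keratin filaments. TGFβ is known to drive mammary epithelial cells towards a mesenchymal state, during which epithelial junctions are taken apart.

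Libraries held 14705886 to 23786993 counts, and their TMM scaling factors lay between 0.961 and 1.07. Smad7, Skil and Junb, which TGFβ is known to induce, were higher at both times, with a log2 fold change (log2FC) of 3.51 for Junb at 2 h and 3.98 at 12 h. Of the 6 epithelial markers listed, Cdh1, Krt8 and Krt18 were abundant, and the summed level of the 6 was 3293 to 3932 CPM with vehicle, 4683 to 4775 at 2 h and 9875 to 9896 at 12 h. The sum followed Krt8 and Krt18, whereas Cdh1 had 421 and 363 CPM with vehicle, 608 and 452 at 2 h, and 407 and 337 at 12 h and was not called at either time (adjusted p = 0.159 and 0.762). Epcam (2 to 16 counts), Cldn7 (0 to 7 counts) and Cldn3 (0 to 1 count) were near absent from every library. In bulk RNA, fewer cells expressing a gene and less RNA per cell cannot be told apart.

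Desmosome transcripts did not move together. At 2 h of TGFβ1, 4 of the 9 genes tested (Jup, Pkp1, Pkp2 and Perp) were higher than with vehicle and 0 were lower, where 9.91% of all genes tested were higher and 5.25% lower. At 12 h, 5 were higher (the same 4 and Dsp) and 2 were lower (Ppl and Pkp4), where 21.8% of all genes were higher and 21.5% lower. Calls were made at an adjusted p under 0.05 by the quasi-likelihood test of edgeR with Benjamini-Hochberg adjustment over all genes tested. No member was called lower at 2 h by edgeR, limma-voom (0) or DESeq2 (0), or was lower at an unadjusted edgeR p under 0.05 (0 members). The median log2FC of the 9 genes was 0.29 at 2 h and 0.40 at 12 h, beside -0.01 and 0.02 for all genes tested. Both comparisons use the same vehicle libraries. With 2 replicates per group the smaller changes rest on few libraries, and 1 to 4 members were called higher at 2 h and 2 to 5 at 12 h when each library in turn was left out. The count of 4 at 2 h fell to 1 without vehicle replicate 1 and to 2 without vehicle replicate 2 or either 12 h replicate, and the count of 5 at 12 h fell to 3 without either vehicle replicate or 12 h replicate 1 and to 2 without 12 h replicate 2. Over all genes, 1098 were called higher at 2 h, and 499, 547, 660 and 659 without vehicle replicate 1, vehicle replicate 2, 12 h replicate 1 and 12 h replicate 2. At 12 h 2414 were called higher, and 1577, 1635, 1467 and 1333 in the same order, so that fewer genes were called in these settings in general. The 2 lower genes at 12 h fell to 1 without either vehicle or either 12 h replicate. Scaling by total counts put the median log2FC of all genes at -0.12 at 2 h and -0.11 at 12 h, and 46.7% of the calls over all genes at 2 h were higher, against 65.4% with TMM factors, and 37.5% against 50.3% at 12 h. With total counts, 3 members were called higher at 2 h and 3 at 12 h, beside 854 and 1830 of all genes. With only the 2 groups compared in the fit, 2 members were called higher at 2 h, beside 644 of all genes.

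**Figure D1:**
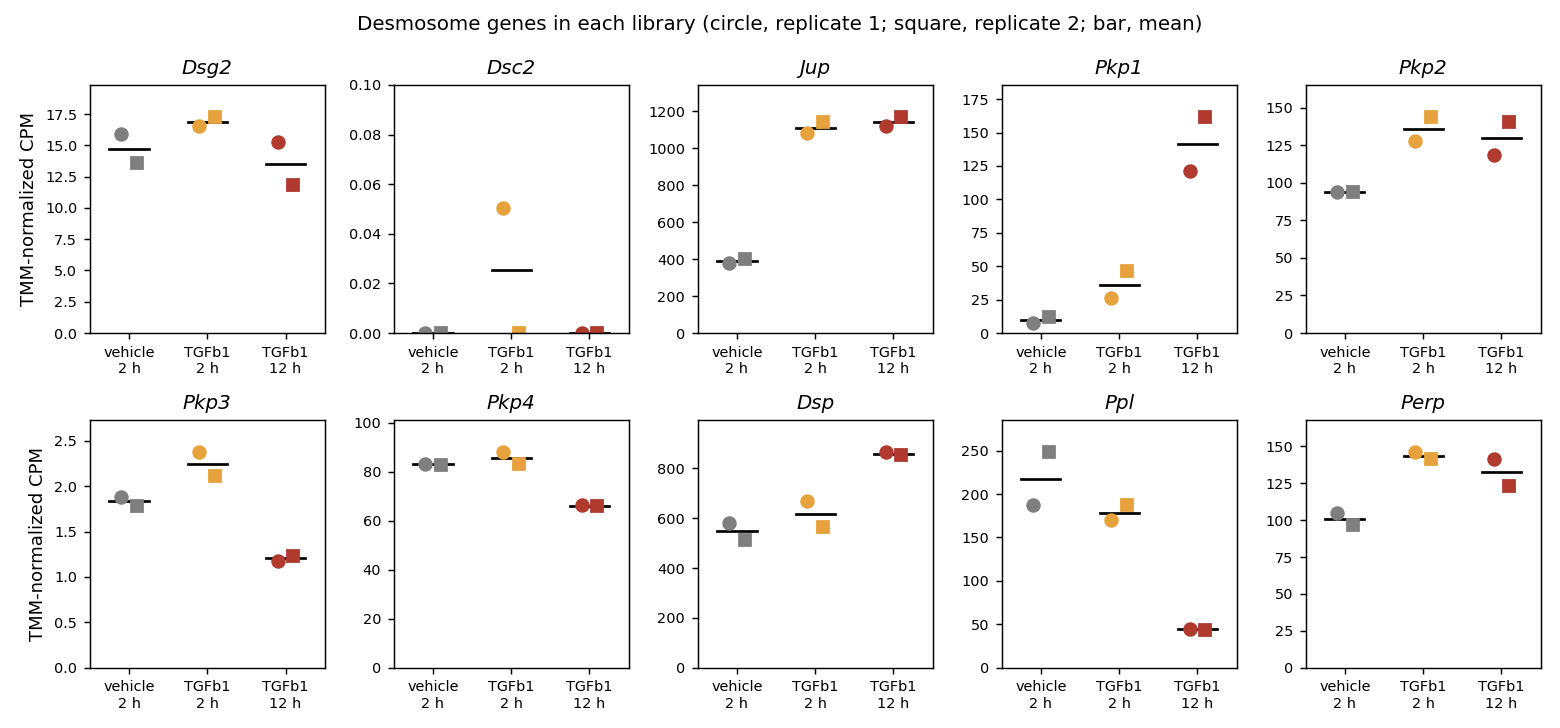
Level of each of the 10 desmosome genes in every library, in TMM-normalized CPM on a linear axis that starts at 0, for vehicle at 2 h and TGFβ1 at 2 h and 12 h. Circles are replicate 1, squares are replicate 2 and bars are group means, and Jup steps up from 378 to 398 CPM to at least 1084 CPM, Pkp1 climbs in each group to 121 to 161 CPM at 12 h, and Ppl drops to about 44 CPM at 12 h.

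**Figure D2:**
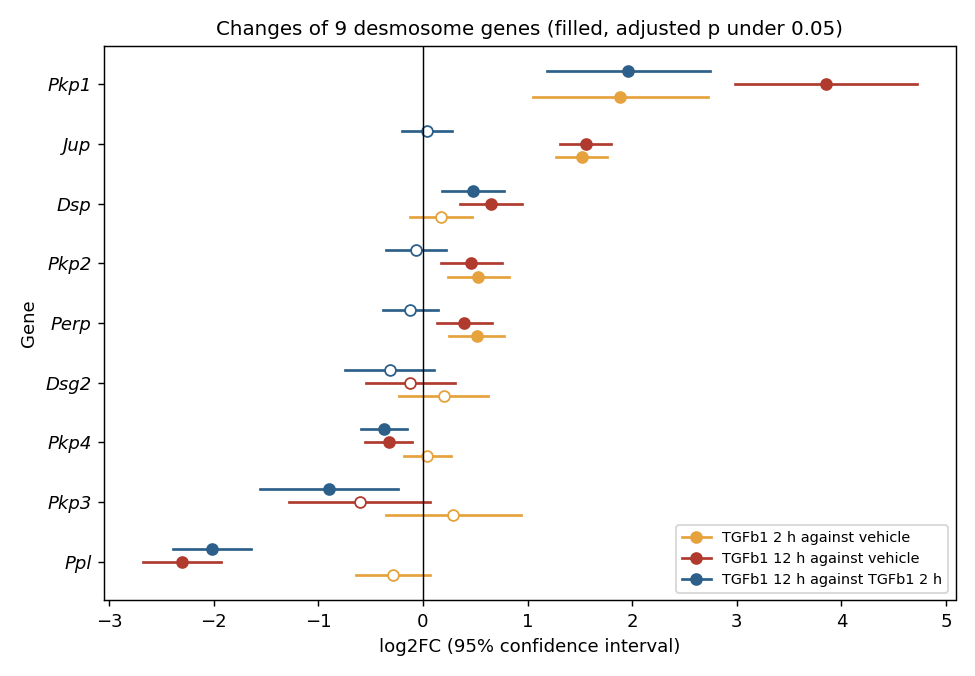
The log2FC of the 9 desmosome genes tested in the 3 comparisons, with 95% confidence intervals from the edgeR fit and filled points for an adjusted p under 0.05. Genes are ordered by the change at 12 h, from Ppl (-2.30) to Pkp1 (3.85), and the intervals of Dsg2 include 0 in all 3 comparisons.

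Jup (Entrez 16480) encodes plakoglobin, the armadillo protein that desmosomes share with adherens junctions. It lies on chromosome 11 (100230272 to 100259077, minus strand, build NCBIM37, which is mm9). Its level was 378 and 398 CPM in the vehicle libraries, 1084 and 1139 CPM at 2 h, and 1119 and 1167 CPM at 12 h. Every treated library lay far above both vehicle libraries, and the values of the 2 times overlapped. Jup was 2.86-fold higher at 2 h (log2FC 1.52, SE 0.101, adjusted p = 0.000464) and 2.94-fold higher at 12 h (log2FC 1.56, SE 0.101, adjusted p = 9.87e-05). Between the 2 times it differed by a log2FC of 0.04 with a 95% confidence interval from -0.20 to 0.28 (adjusted p = 0.778). The higher level at both times was called under every alternative tried, with a log2FC from 1.41 to 1.56 at 2 h and from 1.43 to 1.60 at 12 h.

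Promoter sequences from RefSeq on GRCm38.p6 could be matched for 3 of the 10 genes, namely Jup, Dsp and Pkp4. The 250 bases before the start of Jup and of Dsp are shown because Jup was called higher at 2 h and 12 h and Dsp at 12 h alone. Each was found once in the NCBIM37 genome. Capitals mark the GC box (GGGCGG, searched on both strands), and no matches overlap.
Jup promoter, chr11:100397791-100398040, minus strand: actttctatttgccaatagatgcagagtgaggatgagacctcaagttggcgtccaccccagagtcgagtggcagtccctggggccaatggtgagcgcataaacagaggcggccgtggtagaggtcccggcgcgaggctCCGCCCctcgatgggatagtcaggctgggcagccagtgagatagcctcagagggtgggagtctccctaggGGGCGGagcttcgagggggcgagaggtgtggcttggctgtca
Dsp promoter, chr13:38151044-38151293, plus strand: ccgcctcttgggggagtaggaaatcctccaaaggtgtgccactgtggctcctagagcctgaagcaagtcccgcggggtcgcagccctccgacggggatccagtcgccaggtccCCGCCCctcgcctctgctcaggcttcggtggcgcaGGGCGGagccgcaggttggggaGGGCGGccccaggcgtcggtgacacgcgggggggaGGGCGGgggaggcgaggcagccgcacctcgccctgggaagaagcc
The Jup window had a GC content of 62.0% and 2 GC boxes, at 112 and 42 bases before the start. The Dsp window had a GC content of 72.4% and 4 GC boxes, between 137 and 45 bases before the start. A GC box was present in 32.7% of 32851 promoters of the same length. Neither of these windows held the SMAD box GTCTG (42.2% of promoters), the E-box CAGGTG bound by SNAI and ZEB factors (17.2%) or the AP-1 motif TGANTCA (6.75%), each searched on both strands. Of the 2 windows matched for Pkp4, which was called lower at 12 h, 1 held 2 SMAD boxes and 5 GC boxes and the other 1 CAGGTG.

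The plakophilins are armadillo proteins of the desmosomal plaque, and the 4 genes did not share 1 course. Pkp1 rose at both times and further between them, Pkp2 rose by a small amount at both times, and Pkp4 was called lower at 12 h. Pkp3 was at a low level and not called against vehicle at either time. Pkp1 (18772) encodes the plakophilin best known from stratified epithelia. Its levels were 7.47 and 12.2 CPM with vehicle, 26.0 and 46.4 at 2 h, and 121 and 161 at 12 h. No 2 groups overlapped, and replicate 2 was the higher library in every group. Pkp1 was 3.70-fold higher at 2 h (log2FC 1.89, SE 0.348, adjusted p = 0.0155) and 14.4-fold higher at 12 h (log2FC 3.85, SE 0.363, adjusted p = 0.000347). It was the largest increase among the members at both times, and 186 of the other genes tested had a larger log2FC at 2 h and 85 at 12 h. From 2 h to 12 h it rose by a log2FC of 1.96 (SE 0.326, adjusted p = 0.00517). Without vehicle replicate 1 the change at 2 h was 1.57 with an adjusted p of 0.0872, while the call at 12 h held without any 1 library, with a log2FC from 3.54 to 4.24.

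Markers of cornifying keratinocytes, cells in which Pkp1 is abundant, were measured as well. Their summed level was 98.1 and 147 CPM with vehicle, 155 and 249 at 2 h, and 205 and 290 at 12 h, with replicate 2 again the higher library of each group. Sprr1a made up most of it (283 CPM in the highest library). Of the 3 genes tested, 2 (Ivl and Sprr1a) were called higher at 12 h and Krt10 was not, where 21.8% of all genes tested were higher. Ivl passed the filter on low counts only through the 12 h libraries, where it is high, so that its call is no support for a change of the list. The call of Sprr1a (adjusted p = 0.0341) was lost with total counts (0.0592) and without vehicle replicate 1 (0.156) or 12 h replicate 1 (0.0579) or 2 (0.201). At 2 h, 0 were called by edgeR, limma-voom (0) or DESeq2 (0), and 2 had an unadjusted p under 0.05. With the replicate number as a block, Sprr1a was called at 2 h (log2FC 0.71, adjusted p = 0.000592, against 0.168 without it) and between 2 h and 12 h (log2FC 0.31, adjusted p = 0.0213, against 0.484). Krt1 was at 0 in all 6 libraries, Lor had 1 to 19 counts, and Flg was not analysed here. The part of these markers in the Pkp1 result was not tested.

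Pkp1 lies on chromosome 1 (137767972 to 137815784, minus strand), in a cluster with Lad1, which encodes the basement membrane component ladinin, and Tnnt2, which encodes cardiac troponin T. The study chose this cluster on these samples as co-regulated, so a shared direction is not independent evidence. Tnnt2 was the nearest counted gene, with its start 78.3 kb from that of Pkp1. Its levels were 3.06 and 3.56 CPM with vehicle, 12.8 and 19.1 at 2 h, and 36.2 and 46.4 at 12 h. Tnnt2 was higher at 2 h (log2FC 2.27, SE 0.259, adjusted p = 0.00262) and at 12 h (log2FC 3.64, SE 0.263, adjusted p = 0.000144). Lad1 rose from 154 and 178 CPM with vehicle to 331 and 416 CPM at 2 h (log2FC 1.17, adjusted p = 0.00398) and 469 and 526 CPM at 12 h (log2FC 1.59, adjusted p = 0.000364). On the other side of Pkp1, Igfn1 had at most 1 count. The study directed CRISPR interference at an enhancer of this cluster with a pair of guides. By RT-qPCR, it reports that this impaired the TGFβ-dependent rise of all genes of the cluster. The targets of the guides are shown because they place that enhancer relative to Pkp1. The PAM is in capitals.
SgTNNT2-1: gggactggagtctattgccaGGG
sgTNNT2-2: gccactcaacagatatgaggGGG
Each sequence had 1 match in NCBIM37, on the minus strand, at chr1:137759214-137759233 for the former and chr1:137758644-137758663 for the latter. Neither lay inside a counted gene with a matched position, and other annotated genes were not searched. Their distances to the start of Pkp1 were 56.6 and 57.1 kb, and those to the start of Tnnt2 were 21.8 and 21.2 kb. No count library here comes from cells that received them.

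Pkp2 (67451, chromosome 16, 16213411 to 16272805, plus strand) encodes a plakophilin found in most cells that form desmosomes. It had 93.8 and 94.0 CPM with vehicle, 128 and 144 at 2 h, and 119 and 140 at 12 h. All treated libraries lay above both vehicle libraries, and the times overlapped. The log2FC was 0.53 at 2 h (SE 0.121, adjusted p = 0.0315) and 0.46 at 12 h (SE 0.121, adjusted p = 0.0208). These calls were lost with total counts (adjusted p = 0.0698 and 0.0741, with a log2FC of 0.54 and 0.45 relative to the median of all genes). At 2 h the call was also lost without either vehicle replicate, 2 h replicate 2 or either 12 h replicate, with a log2FC of 0.44 to 0.53. It was lost as well with only the 2 groups compared in the fit (adjusted p = 0.0582, log2FC 0.52). At 12 h it was lost without either vehicle replicate or 12 h replicate 2, with a log2FC of 0.32 to 0.46.

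Pkp4 (227937, chromosome 2, 58998907 to 59193265, plus strand) encodes a relative of the plakophilins that is found at both desmosomes and adherens junctions. Its level was 83.2 and 82.8 CPM with vehicle, 88.0 and 83.1 at 2 h, and 66.3 and 66.0 at 12 h. Vehicle and 2 h overlapped, and both 12 h libraries were below all others. The log2FC was 0.04 at 2 h (95% confidence interval -0.18 to 0.26, adjusted p = 0.790) and -0.33 at 12 h (SE 0.092, adjusted p = 0.0279). The call at 12 h was lost without either vehicle or either 12 h replicate, with a log2FC of -0.35 to -0.32.

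Pkp3 (56460, chromosome 7, 148264117 to 148276409, plus strand), whose product is widespread in stratified epithelia, was at a low level with 24 to 47 counts per library. It passed the filter on low counts only through the 2 h libraries. It had 1.88 and 1.78 CPM with vehicle, 2.38 and 2.12 at 2 h, and 1.18 and 1.23 at 12 h. The 3 groups did not overlap, but neither the log2FC of 0.29 at 2 h (95% confidence interval -0.35 to 0.94, adjusted p = 0.518) nor that of -0.61 at 12 h (-1.28 to 0.07, adjusted p = 0.129) passed the test.

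Scaled by exon length as RPKM (CPM per kilobase of exon), the plakophilin mixture could be compared between genes. Pkp1 made up 4.36% and 6.93% of the summed plakophilin level in the vehicle libraries, 11.5% and 18.1% at 2 h, and 41.4% and 45.8% at 12 h. The share of Pkp4 was 42.2% ± 0.919 (SD, n = 2) with vehicle and 18.3% ± 2.48 at 12 h, and that of Pkp2 was 51.3% and 50.2% with vehicle and 38.1% and 37.3% at 12 h. Pkp1 went from the third to the most abundant plakophilin transcript, and it overlapped Pkp2 at 12 h (24.1 and 32.1 RPKM against 22.2 and 26.2 RPKM). Pkp3 stayed at or below 1.53% in every library. Shares sum to a constant, so that a share can change without a change of that gene.

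**Figure D3:**
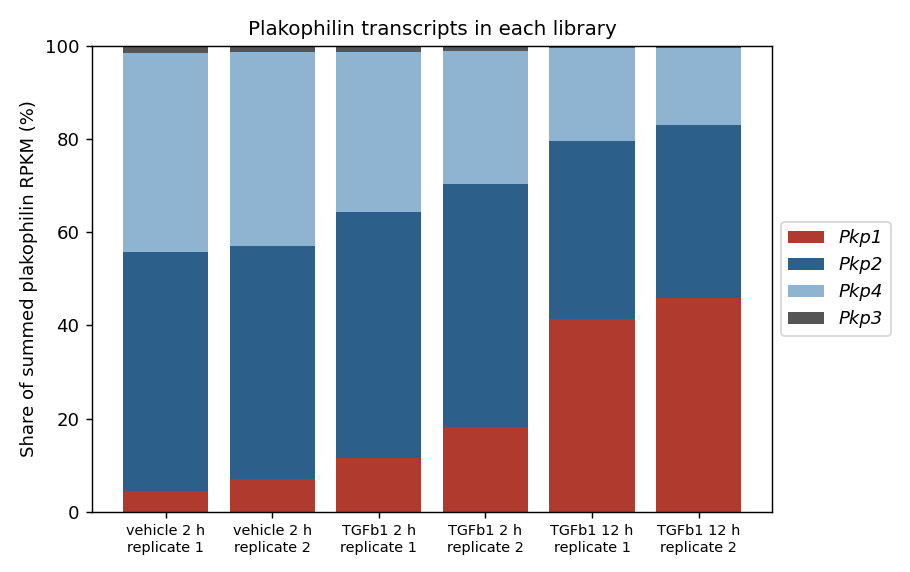
Share of each plakophilin gene in the summed RPKM of the 4, as stacked bars from 0 to 100% for each of the 6 libraries. The Pkp1 share is 4.36% and 6.93% in the vehicle libraries and 41.4% and 45.8% in the 12 h libraries.

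The plakins, large proteins that tie junctions to keratin filaments, moved in opposite directions at 12 h. Dsp (109620, chromosome 13, 38243197 to 38290446, plus strand) encodes desmoplakin, which every desmosome needs. Its level was 582 and 514 CPM with vehicle, 668 and 566 at 2 h, and 866 and 852 at 12 h. Vehicle and 2 h overlapped, and both 12 h libraries were above all others. The log2FC was 0.17 at 2 h (95% confidence interval -0.13 to 0.47, adjusted p = 0.408) and 0.65 at 12 h (SE 0.124, adjusted p = 0.00623), which is 1.57-fold. Leaving out 12 h replicate 1 or 2 gave an adjusted p of 0.0554 or 0.0517 with a log2FC of 0.62 or 0.64.

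Ppl (19041, chromosome 16, 5086384 to 5132574, minus strand) encodes periplakin, known from the cornified envelope and from desmosomes. It had 187 and 248 CPM with vehicle, 170 and 187 at 2 h, and 44.3 and 44.0 at 12 h. The higher 2 h library (186.8 CPM) was level with the lower vehicle library (186.9 CPM), and both 12 h libraries were far below. Ppl was not called at 2 h (log2FC -0.29, 95% confidence interval -0.64 to 0.07, adjusted p = 0.254) and was 4.93-fold lower at 12 h (log2FC -2.30, SE 0.157, adjusted p = 0.000118). Of the other genes tested, 514 had a lower log2FC at 12 h. The decrease was called under every alternative, with a log2FC from -2.49 to -2.08. Per exon length, Dsp exceeded Ppl 2.03-fold and 1.35-fold in the vehicle libraries, 2.57-fold and 1.98-fold at 2 h, and 12.8-fold and 12.6-fold at 12 h.

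Perp (64058, chromosome 10, 18564877 to 18576879, plus strand) encodes a tetraspan protein of desmosomes that is also a target of p53 family factors. It had 105 and 96.5 CPM with vehicle, 146 and 141 at 2 h, and 142 and 123 at 12 h. All treated libraries lay above both vehicle libraries, and the times overlapped. The log2FC was 0.51 at 2 h (SE 0.111, adjusted p = 0.0262) and 0.40 at 12 h (SE 0.111, adjusted p = 0.0271). At 2 h the call was lost without either vehicle or either 12 h replicate, with a log2FC of 0.46 to 0.57. It was lost as well with only the 2 groups compared (adjusted p = 0.0612, log2FC 0.51). At 12 h it was lost without either vehicle or either 12 h replicate, with a log2FC of 0.27 to 0.48. It was also lost with total counts (adjusted p = 0.0871, a log2FC of 0.38 relative to the median of all genes).

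Of the 2 desmosomal cadherins among the members, Dsg2 was not called at any time and Dsc2 could not be tested. Dsg2 (13511), the desmoglein found in simple epithelia, had 15.9 and 13.6 CPM with vehicle, 16.5 and 17.2 at 2 h, and 15.2 and 11.9 at 12 h. Both 2 h libraries were above the vehicle libraries and the 12 h libraries overlapped them. The log2FC was 0.20 at 2 h (95% confidence interval -0.23 to 0.62, adjusted p = 0.509) and -0.12 at 12 h (-0.55 to 0.31, adjusted p = 0.625). Dsc2 (13506), the desmocollin of simple epithelia, had 1 count in 2 h replicate 1 and 0 in the other 5 libraries. A count of 0 allows up to 3 counts, or 0.131 to 0.191 CPM in these libraries for counting error only, and no fold is given. Of the 9 other desmosome genes listed (Dsg1a, Dsg1b, Dsg1c, Dsg3, Dsg4, Dsc1, Dsc3, Evpl and Cdsn), 1 passed the filter. Dsg1a, Dsg4, Dsc1 and Dsc3 were at 0 in every library. Dsg1b had 5 and 4 counts with vehicle, 2 and 3 at 2 h and 0 in both 12 h libraries, Dsg1c and Dsg3 had at most 1 and 2 counts, and Cdsn had 1 to 6. Dsg2 was the 1 desmosomal cadherin above the filter, and desmocollin transcripts were not detectable beyond 1 count at this depth. Evpl, which encodes the plakin envoplakin, had 1.06 and 0.828 CPM with vehicle, 2.17 and 1.51 at 2 h, and 2.09 and 3.59 at 12 h. It passed the filter only through treated libraries, so its higher level there supports nothing about the list. Its log2FC was 0.96 at 2 h (adjusted p = 0.186) and 1.57 at 12 h (SE 0.407, adjusted p = 0.0202), the latter with an adjusted p of 0.0662, 0.104 and 0.126 without vehicle replicate 1, vehicle replicate 2 and 12 h replicate 2.

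Ordered by RPKM, Jup led in every group, with 60.3 ± 2.18 (SD, n = 2) with vehicle, 173 ± 6.04 at 2 h and 178 ± 5.27 at 12 h. With vehicle it was followed by Dsp (56.9 ± 5.00), Perp (52.9 ± 3.01), Ppl (34.7 ± 6.92), Pkp2 (17.5 ± 0.0198), Pkp4 (14.5 ± 0.0582), Pkp1 (1.95 ± 0.660), Dsg2 (1.78 ± 0.198), Pkp3 (0.507 ± 0.0196) and Dsc2 (0). The neighbours Jup and Dsp, Dsp and Perp, and Pkp1 and Dsg2 overlapped in that order. At 2 h the order of Dsp and Perp was exchanged and no neighbours overlapped. At 12 h Pkp1 (28.1 ± 5.67) stood next after Perp, overlapping Pkp2 (24.2 ± 2.84), and Ppl (7.03 ± 0.0282) stood below Pkp4 (11.6 ± 0.0409). The ratio of Jup to Dsp was 0.972 and 1.16 with vehicle, 2.43 and 3.01 at 2 h, and 1.93 and 2.05 at 12 h. Summed over the 10 genes, the level was 240 and 242 RPKM with vehicle, 389 and 393 RPKM at 2 h, and 405 and 413 RPKM at 12 h, and Jup alone held most of the difference. Exon lengths came from another annotation than the counts, so levels between genes are approximate.

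The 12 h and 2 h libraries were also compared directly. The vehicle libraries enter that contrast through the scaling, the filter and the shared estimate of the spread. Of the 9 genes, 2 were higher at 12 h (Pkp1 and Dsp) and 3 were lower (Ppl, Pkp3 and Pkp4), where 15.2% of all genes tested were higher and 18.9% lower. The median log2FC was -0.12, beside 0.01 for all genes tested. Ppl fell by 2.01 on the log2 scale (SE 0.155, adjusted p = 0.000418). The log2FC of Dsp was 0.48 (adjusted p = 0.0259), with an adjusted p of 0.0833, 0.146 and 0.131 without 2 h replicate 2, 12 h replicate 1 and 12 h replicate 2. For Pkp4 it was -0.37 (adjusted p = 0.0220). That call was lost without vehicle replicate 1 (0.0514) or 2 (0.0505), 2 h replicate 1 (0.0648), or 12 h replicate 1 (0.114) or 2 (0.119), and with only the 2 groups compared (0.0504). Pkp3 reached 2 CPM in no library other than those of 2 h, the group it is compared with here, so its place among the 3 lower genes is favoured by the filter and supports nothing. Its log2FC was -0.90 (adjusted p = 0.0448), and its adjusted p was 0.0808 to 0.179 without each of the 6 libraries in turn, 0.0575 without a filter, 0.0813 with only the 2 groups compared and 0.161 by DESeq2. Jup (0.04), Pkp2 (-0.07), Perp (-0.12) and Dsg2 (-0.32) were not called, with 95% confidence intervals of -0.20 to 0.28, -0.35 to 0.22, -0.38 to 0.15 and -0.74 to 0.11.

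The genes next to the other members were counted too. Sigirr, 22.3 kb from Pkp3 by start site, was lower at 12 h (log2FC -1.35, SE 0.173, adjusted p = 0.00119), and Ano9 beyond it had a log2FC of -2.96 (SE 0.281, adjusted p = 0.00035). Ano9 had 3.94 and 4.20 CPM with vehicle, 3.89 and 3.63 at 2 h, and 0.566 and 0.462 at 12 h. It passed the filter only through the vehicle and 2 h libraries, which favours a lower value at 12 h, so that its call supports nothing. Tnfaip3, an inhibitor of NF-κB signalling whose start lies 170.6 kb from that of Perp, was higher at 2 h (log2FC 0.96, adjusted p = 0.00318) and at 12 h (log2FC 0.51, adjusted p = 0.0125), the latter lost without vehicle replicate 1 (0.0873) or 12 h replicate 2 (0.0979). The study chose Sigirr, Ano9 and Tnfaip3 on these samples as well. Of the genes beside Jup, P3h4 (17.1 kb away) had a log2FC of 0.49 at 12 h (SE 0.134, adjusted p = 0.0251) and Hap1 (41.6 kb) one of -1.65 (SE 0.180, adjusted p = 0.000618). The call of P3h4 was lost with total counts (0.0607) and without vehicle replicate 2 (0.144) or 12 h replicate 1 (0.0735) or 2 (0.172). Beside Pkp2, Yars2 had a log2FC of 0.42 at 12 h (SE 0.117, adjusted p = 0.0257), lost with total counts (0.0929) and without vehicle replicate 1 (0.134) or 2 (0.0928) or 12 h replicate 1 (0.116) or 2 (0.134), and Spidr was not called (adjusted p = 0.380). Beside Ppl, Ubn1 had a log2FC of -0.49 at 12 h (adjusted p = 0.0185), lost without vehicle replicate 2 (0.113) or 12 h replicate 1 (0.122) or 2 (0.0645). The genes on either side of Dsp, Riok1 and Snrnp48, were not called at 12 h (adjusted p = 0.377 and 0.411).

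Other junction genes showed where the desmosome genes stood. Beside the counts of this list and those after it, 9.91% of all genes tested were called higher and 5.25% lower at 2 h. At 12 h these shares were 21.8% and 21.5%. Among armadillo relatives of the adherens junction, 1 of 3 genes tested was higher at 2 h, and 2 were higher and 1 lower at 12 h, with a median log2FC of 0.40 and 0.75. Ctnnb1, which encodes β-catenin, the closest relative of plakoglobin, had 6694 and 5523 CPM with vehicle, 8862 and 7297 at 2 h, and 3494 and 3203 at 12 h. At 12 h Ctnnb1 was lower (log2FC -0.87, SE 0.153, adjusted p = 0.00449, and 0.0519 without 12 h replicate 2) while Jup was higher. At 2 h Ctnnb1 had a log2FC of 0.40 with an adjusted p of 0.134, and 0.0238 with the replicate block. Ctnnd1, which encodes p120 catenin, was higher at 2 h (log2FC 0.73, adjusted p = 0.00891, and 0.0720 without vehicle replicate 1) and at 12 h (log2FC 1.13, adjusted p = 0.000493). Arvcf was higher at 12 h (log2FC 0.75, adjusted p = 0.00509), and Ctnnd2 had at most 4 counts.

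Among plakins of other junctions, 1 of 4 was higher at 2 h and 3 at 12 h, and 0 were lower at either time, with a median log2FC of 0.06 and 0.42. No plakin of this list was lower by limma-voom (0), DESeq2 (0) or at an unadjusted p under 0.05 (0). Plec, which encodes plectin, had 1225 and 1349 CPM with vehicle and was higher at 2 h (log2FC 0.92, adjusted p = 0.00442) and 12 h (log2FC 0.77, adjusted p = 0.00278). Dst had a log2FC of 0.52 at 12 h (adjusted p = 0.00609, and 0.0584 without 12 h replicate 2). Macf1 had a log2FC of 0.33 at 12 h (adjusted p = 0.0326), and the call was lost with total counts (0.167) and without vehicle replicate 1 (0.163) or 2 (0.112) or 12 h replicate 1 (0.127) or 2 (0.164).

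Keratins form the filaments to which desmosomes attach. Of the 5 keratins of simple or basal epithelia that were tested (Krt7, Krt8, Krt18, Krt19 and the basal Krt14), 1 was higher at 2 h, and 3 were higher and 1 lower at 12 h, with a median log2FC of 0.68 and 1.52. At 2 h 2 were called by DESeq2, and Krt14 was called as well with the replicate block (adjusted p = 0.0305). Krt8 was higher at 2 h (log2FC 0.68, adjusted p = 0.00874, and 0.0660 without vehicle replicate 2) and at 12 h (log2FC 1.63, adjusted p = 0.000114). Its partner Krt18 was higher at 12 h (log2FC 1.52, SE 0.134, adjusted p = 0.000275). Krt19 was lower at 12 h (log2FC -1.95, SE 0.128, adjusted p = 0.000103), from 1845 and 1664 CPM with vehicle to 420 and 489 CPM. Krt7 passed the filter only through treated libraries, so that its part in the count and the median is no support for a rise of the list. It had 1.02 to 5.18 CPM and a log2FC of 1.60 at 12 h (adjusted p = 0.0141, and 0.0739 without vehicle replicate 2 or 0.0999 without 12 h replicate 1).

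Hemidesmosomes attach keratins to the basement membrane instead of to a neighbouring cell. Of their 5 genes tested, 4 were higher at 2 h (Itga6, Itgb4, Cd151 and Plec) and 4 at 12 h (Itgb4, Cd151, Plec and Dst), with 0 lower by edgeR, limma-voom, DESeq2 or an unadjusted p under 0.05. Their median log2FC was 0.75 at 2 h and 0.52 at 12 h. Itga6, the α6 integrin, had 77.3 and 74.5 CPM with vehicle, 143 and 133 at 2 h, and 85.2 and 85.0 at 12 h. It was higher at 2 h (log2FC 0.86, adjusted p = 0.00243) and lower at 12 h than at 2 h (log2FC -0.70, adjusted p = 0.00256). Its partner Itgb4 had a log2FC of 0.75 at 2 h (adjusted p = 0.0038) and 0.48 at 12 h (adjusted p = 0.00733, and 0.0588 or 0.0669 without vehicle replicate 2 or 12 h replicate 1). Cd151 had a log2FC of 0.48 at 2 h (adjusted p = 0.0373) and 1.03 at 12 h (adjusted p = 0.000687). Its call at 2 h was lost with total counts (0.0897) or only the 2 groups compared (0.0970), and without vehicle replicate 1 (0.156) or 2 (0.174), 2 h replicate 2 (0.113), or 12 h replicate 1 (0.0954) or 2 (0.0974).

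Among 9 enzymes and motors reported to act on desmosomal proteins, 0 were called at 2 h by edgeR, 2 had an unadjusted p under 0.05, 0 were called by limma-voom, 1 by DESeq2 and 2 (Zdhhc5 and Prmt1) with the replicate block (adjusted p = 0.00833 and 0.0410). At 12 h, 2 were higher and 2 lower by edgeR, and 3 lower by limma-voom or DESeq2. The edgeR counts at 12 h were near the shares over all genes tested, 21.8% higher and 21.5% lower. Kif5b, a kinesin motor, had an adjusted p of 0.0524 and of 0.0282 with the replicate block (log2FC -0.28 in both). The median log2FC was 0.05 at 2 h and 0.04 at 12 h. Adam17, a sheddase of desmoglein, had a log2FC of -0.69 (adjusted p = 0.002). Atp2a2, the calcium pump whose human counterpart is affected in a disorder of desmosomal adhesion, had a log2FC of -0.47 (adjusted p = 0.00805, and 0.0509 or 0.0677 without vehicle replicate 2 or 12 h replicate 2). Prmt1 had a log2FC of 0.71 (adjusted p = 0.0143, and 0.0862 or 0.0998 without vehicle replicate 1 or 12 h replicate 1). Zdhhc5, a palmitoyltransferase, had a log2FC of 0.57 (adjusted p = 0.0104, and 0.0656, 0.0887 and 0.0568 without vehicle replicate 2, 12 h replicate 1 and 12 h replicate 2).

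**Figure D4:**
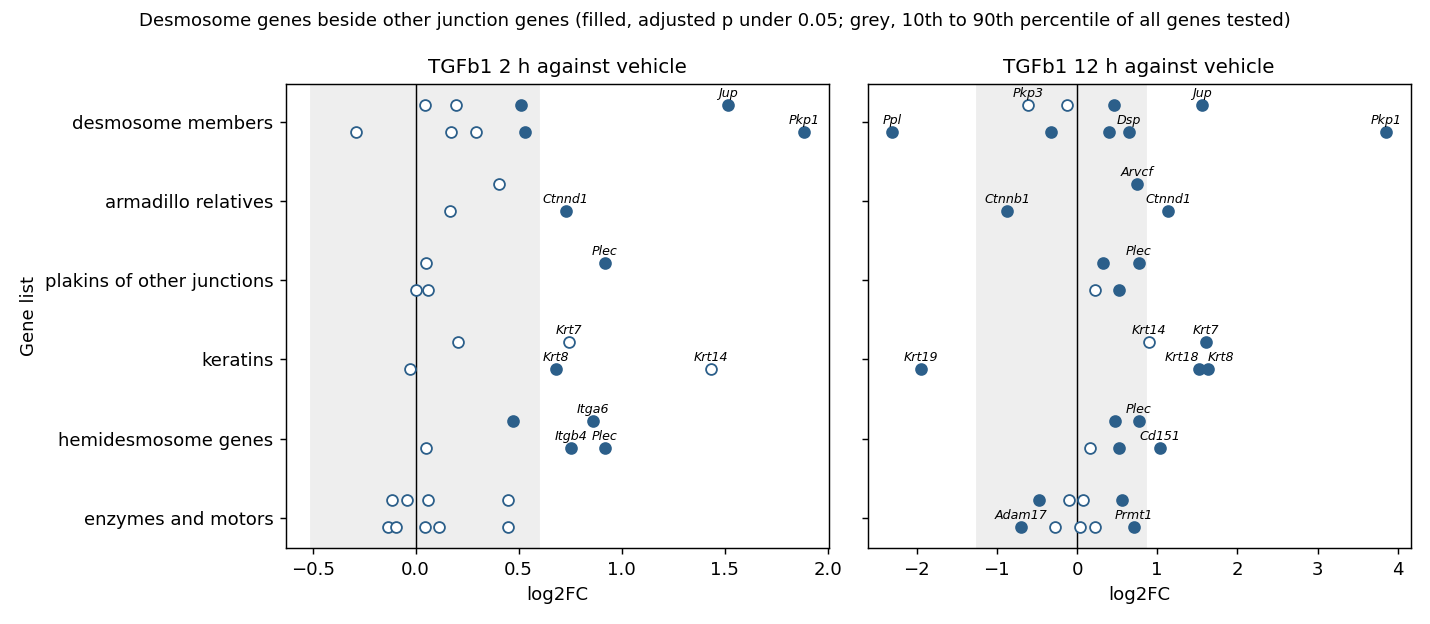
The log2FC of every tested gene of 6 lists at 2 h and at 12 h against vehicle, with filled points for an adjusted p under 0.05 and a grey band from the 10th to the 90th percentile of all genes tested. Pkp1, Jup and Ppl lie outside the band at 12 h, as do Krt7, Krt8, Krt14, Krt18, Krt19, Ctnnd1 and Cd151. Genes beyond 0.6 on either side are named.

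Markers of other cell types were counted as well. Fibroblast markers summed to 3.50 to 4.65 CPM with vehicle, 9.12 to 9.46 at 2 h and 14.8 to 16.0 at 12 h, where Col1a1, which passed the filter only through treated libraries, was the 1 of 2 genes tested that was higher at both times and Lum had at most 1 count. Myoepithelial or basal markers summed to 2.93 to 5.29 CPM, 9.10 to 12.2 CPM and 6.05 to 9.39 CPM in the same order, with Oxtr at 0. The 1 gene of them tested, Krt14, had a log2FC of 1.43 at 2 h (adjusted p = 0.0992, but 0.0305 once the replicate number was a block) and was not called at 12 h. Cardiac muscle markers summed to 3.76 to 5.28 CPM, 15.7 to 21.6 CPM and 38.1 to 48.7 CPM, nearly all from Tnnt2, while Ryr2 was at 0 and Nppa had at most 1 count. Blood markers summed to 5.40 to 7.71 CPM, with Cd3e at 0 and Cd68 the 1 gene tested and not called. Endothelial markers summed to 0.412 and 0.446 CPM with vehicle, 0.657 and 0.555 at 2 h, and 1.96 and 2.21 at 12 h, with 39 and 36 counts of Cdh5 at 12 h against 1 and 2 with vehicle and Emcn at 0, and adipocyte markers to 0.103 to 0.506 CPM with Lep and Retn at 0. The part of fibroblast, endothelial, cardiac or basal markers in the member results was not tested.

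Genes with the pattern most like that of a called member were named by the root mean square distance of the log2 ratio to vehicle over the 4 treated libraries, as a description over 11079 other genes. For Jup they were Tiam2 (distance 0.0699) and Spred2 (0.0981), with 25 genes within 0.2. For Pkp1 they were Lce1f (0.154) and Wnt7a (0.161), with 3 genes within 0.2. Lce1f had 0 counts in both vehicle libraries, so that its ratios, and with them its distance, are set by the pseudocount of 0.25 CPM added to every level. For Ppl they were Mettl7a1 (0.0881) and Pola1 (0.12), with 19 genes within 0.2. For Pkp2 they were Ncln and Adrm1, for Perp Zfp664 and Fhl2, for Dsp Kti12 and Sun2, and for Pkp4 Hp1bp3 and Pdha1, at distances of 0.0186 to 0.0527. These 4 members, with smaller changes, had 342 to 977 genes within that distance. The 4 libraries share the vehicle libraries, so that these distances are not independent between genes.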

How the data were processed

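The authors deposited whole-number read counts for 21240 genes and did not normalize them. According to the study's methods they filtered the reads and aligned them to mm9 by subjunc in Rsubread. They retained unique alignments, took out duplicates with SAMtools 0.1.19 and counted reads on exons of UCSC known genes by strand with featureCounts. Removal of duplicates can lower the counts of highly expressed genes.

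Counts were analysed with edgeR 4.0.16 in R 4.3.3, with limma 3.58.1 and DESeq2 1.42.0 as alternatives. The 11080 genes that reached 2 CPM in 2 or more libraries were fitted with TMM factors in 1 quasi-likelihood fit of the 3 groups, and two-sided p-values received a Benjamini-Hochberg adjustment over all genes of a contrast. CPM are TMM-normalized. The fit was also run on simulated data, and the outcome is not given here. Positions, exon lengths and neighbours came from GENCODE on NCBIM37 with Python 3.11.15, numpy 2.4.6 and pandas 2.3.3, where 18958 genes matched by symbol, 1666 by synonym and 616 did not match. Replicates of a group differed by a median of 0.134 to 0.220 on the log2 scale. The variance between them was 16.8 to 52.8 times that of counting error (chi-square per degree of freedom), so none was a copy of another.

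Deviations from the group mean were correlated over genes for same-numbered libraries (0.708 for vehicle with 2 h, 0.263 for vehicle with 12 h, 0.392 for the treated groups). The pairing comes from these data, as the labels name none, and the fit with the number as a block is an alternative.

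The members and all lists were chosen with earlier results of these data known. The rule for named genes took all members, the called genes of the other lists (all if 5 or fewer, otherwise the 4 with the largest change at 12 h), the nearest counted gene on each side, the genes the study places in 1 domain with a member, and the 2 genes closest in pattern to a called member. Neighbours and listed genes that were not called or not tested are mostly not named. Alternatives were other scalings, filters and tests, the replicate block, only the 2 groups compared, a prior count of 2, and each library left out.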

Additional observations from a re-analysis of the deposited data

Results flagged for a closer look

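These 5 desmosome genes had a change at 12 h that differed from that at 2 h, by the direct edgeR test of 12 h against 2 h with Benjamini-Hochberg adjustment over all genes. The log2FC of 12 h against 2 h was 1.964 for Pkp1 (SE 0.326, adjusted p = 0.00517), with 26.0 and 46.4 CPM at 2 h and 121 and 161 CPM at 12 h. It was -2.013 for Ppl (SE 0.155, adjusted p = 0.000418), with 170 and 187 CPM at 2 h and 44.3 and 44.0 CPM at 12 h. The log2FC was 0.4773 for Dsp (SE 0.124, adjusted p = 0.0259), -0.3715 for Pkp4 (SE 0.0922, adjusted p = 0.0220) and -0.8981 for Pkp3 (SE 0.274, adjusted p = 0.0448). Pkp3 passed the filter on low counts only through the 2 h libraries, which favours a fall from 2 h to 12 h, so that its value is a description. The calls of Pkp1 and Ppl held without any 1 library. Those of Dsp, Pkp4 and Pkp3 were each lost without at least 1 library, with an adjusted p of up to 0.146, 0.119 and 0.179. Vehicle at 12 h was not analysed here, and the time without serum cannot be told apart from the time with TGFβ1.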

How the results depend on the processing

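Of 405 repeats of the member tests, 354 kept direction and call, 46 lost the call in the same direction and 5 turned direction. Jup and Ppl kept every call, and Pkp1 every call other than that at 2 h without vehicle replicate 1. With only the 2 groups compared, the members called were 2 higher at 2 h (4 with all 3 groups) and 1 lower between 2 h and 12 h (3 with all 3 groups). With total counts, 3 were higher at 12 h (5 with TMM factors). With each library left out in turn, 1 to 4 were higher at 2 h. Likewise 2 to 5 were higher and 1 to 2 lower at 12 h, and 1 to 2 higher and 1 to 2 lower at 12 h against 2 h. The log2FC that turned direction were of genes not called: Pkp4 at 2 h (-0.06772 with total counts, which is 0.05 relative to the median of all genes, and -0.01599 to 0.08476 without each library), Dsg2 at 12 h (-0.3305 to 0.03431), and Pkp2 at 12 h against 2 h (-0.1976 to 0.04), the positive or negative turn coming without TGFb2h replicate 1 for Pkp4, TGFb12h replicate 2 for Dsg2, and TGFb2h replicate 2 or TGFb12h replicate 1 for Pkp2. The cause was not tested. The replicate block left every member on its side of the threshold, giving 4 higher members at 2 h, then 5 higher with 2 lower at 12 h. For Ppl at 2 h its adjusted p was 0.0911 and for Pkp3 at 12 h 0.108. Over all genes the block gave 1813 higher and 1409 lower at 2 h, against 1098 and 582 without it, and 644 and 249 were called with only the 2 groups compared. Levels of the members moved by -3.88% to 5.97% with total counts and by -0.414% to 0.546% with DESeq2 size factors. With 2 libraries per group, calls of changes near 0.5 on the log2 scale can be lost without 1 library. Without each library in turn, the log2FC at 2 h stayed at 0.4437 to 0.5934 for Pkp2 and 0.457 to 0.5736 for Perp. At 12 h it lay at 0.3236 to 0.5612 for Pkp2 and 0.2744 to 0.4769 for Perp. Depth limits Dsc2, Pkp3 and Evpl, which had under 100 counts in every library. Where 1 library is left out, the lone library is assumed to vary like the other groups.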
